A study of Macaca nemestrina with 58 samples.

Results

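The genes described here encode the proteins of the cytosolic ribosome. They were taken as every gene whose probe set carries a single symbol of the form RPL or RPS followed by a number, with the P stalk genes RPLP1 and RPLP2 and the paralogs ending in L or L1, and without the RPS6K kinases and RPS19BP1. This gave 40 genes of 14132 with a single-symbol probe set, read by 68 probe sets. Of the 40 genes, 39 passed the filter on dim probe sets, among 11199 genes in all. RPL5, a large subunit protein, did not, with a mean log2 signal of 4.99 and values between 4.12 and 5.70. Each gene is represented by its brightest probe set. The 39 are 26 RPL and 13 RPS genes, and 6 of them are paralogs: RPL3L, RPL7L1, RPL22L1, RPL26L1, RPL36AL and RPS27L. RPLP0, RPL13A, RPS27A, RPS4X, RPS4Y1, RPL10L and RPL39L, and the paralogs' partners RPL3, RPL10, RPL36A, RPL39 and RPS27, were not analysed here.

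A ribosome joins a small subunit, which reads the messenger RNA, to a large subunit, which links the amino acids. The messenger RNAs of ribosomal proteins are among the most abundant of a cell, share a pyrimidine tract at their start and are translated together when growth signals through the mTOR kinase are high. In a squamous mucosa such as the vagina, the dividing cells of the basal and parabasal layers are rich in ribosomes, and cells mature upwards from there. Many ribosomal protein genes have processed pseudogenes, near copies elsewhere in the genome, so a probe can read more than its own gene. Of the 39 representing probe sets, 11 have the suffix s_at and 3 the suffix x_at, which the array maker gives to probe sets that may hybridise with related sequences, and their values are uncertain in that respect.

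Vaginal pinch biopsies came from 15 pig-tailed macaques (Macaca nemestrina), and total RNA was amplified and hybridised to 58 Affymetrix arrays made for the rhesus macaque. Before treatment the animals gave 28 baseline samples, 10 in the early follicular, 5 in the late follicular, 4 in the early luteal and 9 in the late luteal phase of the cycle. Depot medroxyprogesterone acetate (DMPA, an injected progestin) was given to 9 animals, with 8 samples labelled 1D4 and 9 labelled 2D2, at labelled doses of 0.5, 1.5 and 2.5 without a unit. The other 6 animals received the treatment labelled LNG, a combined oral contraceptive (COC) in the series' design text, with 6 samples labelled 5th and 6 labelled 7th, from 3 animals labelled High and 3 labelled Low. The design text puts sampling 5 weeks after the first COC dose and 2 weeks after the second DMPA injection. The sources used here do not say what A- means on 5 of the 12 LNG arrays. No genotype or age is given. No untreated animal was biopsied at the treated times, so effects of a drug, of elapsed time and of repeated biopsies cannot be told apart.

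The deposited log2 values reached 14.57 and array medians lay between 6.07 and 6.26, and precision is limited by how many arrays there are. As a check of the tissue, 9 of 9 markers of maturing squamous cells passed the filter, with baseline medians per gene between 9.36 and 14.01. The array also carries probe sets at the 3' and 5' ends of the GAPDH control transcript, and their log2 difference grows where the 5' end gives less signal than the 3' end. This difference was 1.66 ± 0.31 (SD, n = 28) at baseline, 1.99 ± 0.35 (n = 8) at 1D4, 2.43 ± 0.70 (n = 9) at 2D2, 2.05 ± 0.61 (n = 6) at LNG 5th and 2.11 ± 0.38 (n = 6) at LNG 7th. Within animals it was higher than baseline by 0.74 at 2D2, in 8 of 9 animals, and a two-sided exact permutation test within animals gave p = 0.000305 (0.00122 adjusted over the 4 treated times). The mean rise was 0.31 at 1D4 (adjusted p = 0.0613), 0.40 at LNG 5th (0.0549) and 0.47 at LNG 7th (0.00412), by the same exact permutation test. The 2D2 sample of animal BB0540, at the labelled dose 2.5, stood apart from all others with a difference of 3.98. The corresponding actin difference was 1.22 ± 0.17 at baseline and 1.50 ± 0.44 at 2D2, while that of EEF1A1, a translation elongation factor, was -0.24 ± 0.08 and -0.21 ± 0.14.

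Most ribosomal protein genes gave a bright signal. A mean log2 signal over 12 was seen for 25 of the 39 genes, while 10 lay between 7 and 12 and 4 lay under 7. Brightness is a property of each probe set and does not rank the genes by abundance. The 99th percentile of an array lay between 12.06 and 12.21, so these 25 are read at the top of the scale, and whether differences are compressed there was not tested. Across all 57 samples the SD of the 25 bright genes ran from 0.08 to 0.44 with a median of 0.13, and that of the other 14 from 0.15 to 0.88 with a median of 0.32. The mean over the 39 genes was 11.60 ± 0.06 (SD, n = 28) at baseline, with values between 11.48 and 11.72. It was 11.66 ± 0.13 at 1D4, 11.70 ± 0.08 at 2D2, 11.59 ± 0.13 at LNG 5th and 11.60 ± 0.14 at LNG 7th, and each of these ranges overlapped that of the baseline.

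The comparison of DMPA with baseline asks how the mucosa of an animal differed after the injections from its own untreated state. At 2D2, RPL32 and RPL19 rose 1.48-fold and 1.43-fold, RPL24 and RPL4 fell 1.42-fold and 1.17-fold, and 10 further genes rose 1.07-fold to 1.21-fold. In all, 12 of the 39 genes rose and 2 fell in limma at an adjusted p under 0.05, where 17.2% of all 11199 genes rose and 14.1% fell. As a share of the 39, this was 30.8% and 5.13%. The median log2 change was 0.10 over the 39 genes and 0.05 over all genes, and 32 of the 39 values lay above 0, where 55.6% of all genes did. The median SE was 0.056 over the 39 genes and 0.116 over all genes, so smaller changes could be called among the 39. Among the 25 bright genes, 8 rose and 1 fell, and their changes other than that of RPL24 were at most 0.17. RPL32 and RPL19, with mean signals of 8.93 and 8.91, are not among these 25.

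**Figure D1:**
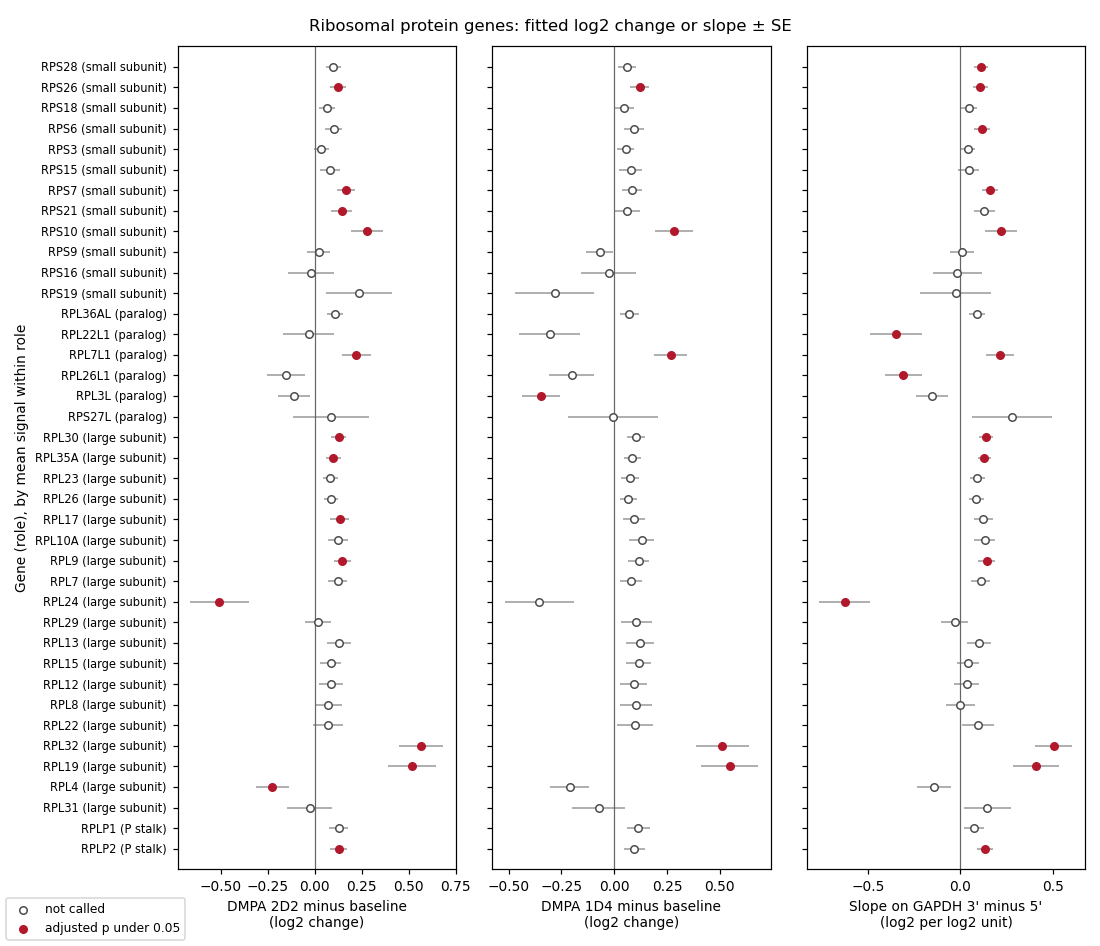
Fitted log2 change ± SE of each of the 39 ribosomal protein genes at DMPA 2D2 (left) and 1D4 (middle) against baseline, and fitted slope on the GAPDH 3' minus 5' difference within animal and stage (right). Filled red points have an adjusted p under 0.05, 14, 6 and 15 genes in the 3 panels. RPL32 and RPL19 lie far to the right in each panel and RPL24 far to the left.

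Among large subunit genes RPL32, often used as a reference gene, had baseline log2 signals from 7.94 to 9.16 (median 8.63, n = 28). At 2D2 its signals ran from 8.70 to 9.94 (median 9.33, n = 9). The ranges overlapped, but 7 of the 9 treated samples lay above the highest baseline sample. Its log2 change was 0.57 ± 0.12 (SE), with an adjusted p of 0.000956 in limma, and it was higher in 8 of 9 animals. RPL19, which lies at the contact between the subunits, ran from 7.98 to 9.25 (median 8.81) at baseline and from 8.95 to 9.88 (median 9.22) at 2D2. All 9 treated samples lay above the baseline median, and 4 lay above the baseline range. The change of RPL19 was 0.52 ± 0.13 with an adjusted p of 0.00335, in 9 of 9 animals.

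RPL24, another protein at the contact between the subunits, moved the other way. Its baseline signals ran from 12.3 to 13.7 (median 13.36) and its 2D2 signals from 11.85 to 13.26 (median 12.71). All 9 treated samples lay under the baseline median, with 1 under the baseline range, and the change was -0.51 ± 0.16 with an adjusted p of 0.0143. RPL4, part of the wall of the tunnel through which the new protein leaves, ran from 8.25 to 9.29 (median 8.86) at baseline and from 8.23 to 9.12 (median 8.48) at 2D2. Its change was -0.23 ± 0.09, with an adjusted p of 0.0473 and 8 of 9 animals lower. The call was lost in 7 of 9 fits that left out 1 animal, with changes from -0.26 to -0.19 over the 9, and in 5 of 12 other settings. The other called large subunit genes rose by small amounts, and the animals' own changes ran from -0.02 to 0.30 for RPL9 and from 0.0031 to 0.28 for RPL17. These were RPL9 with 0.15 ± 0.05 (adjusted p = 0.0166 in limma), RPL17 with 0.13 ± 0.05 (0.0449), RPL30 with 0.13 ± 0.04 (0.0187) and RPL35A with 0.10 ± 0.04 (0.0446). Each was higher in 8 or 9 of 9 animals. Without the filter on dim probe sets RPL17 (0.0622) and RPL35A (0.0624) lost the call.

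**Figure D2:**
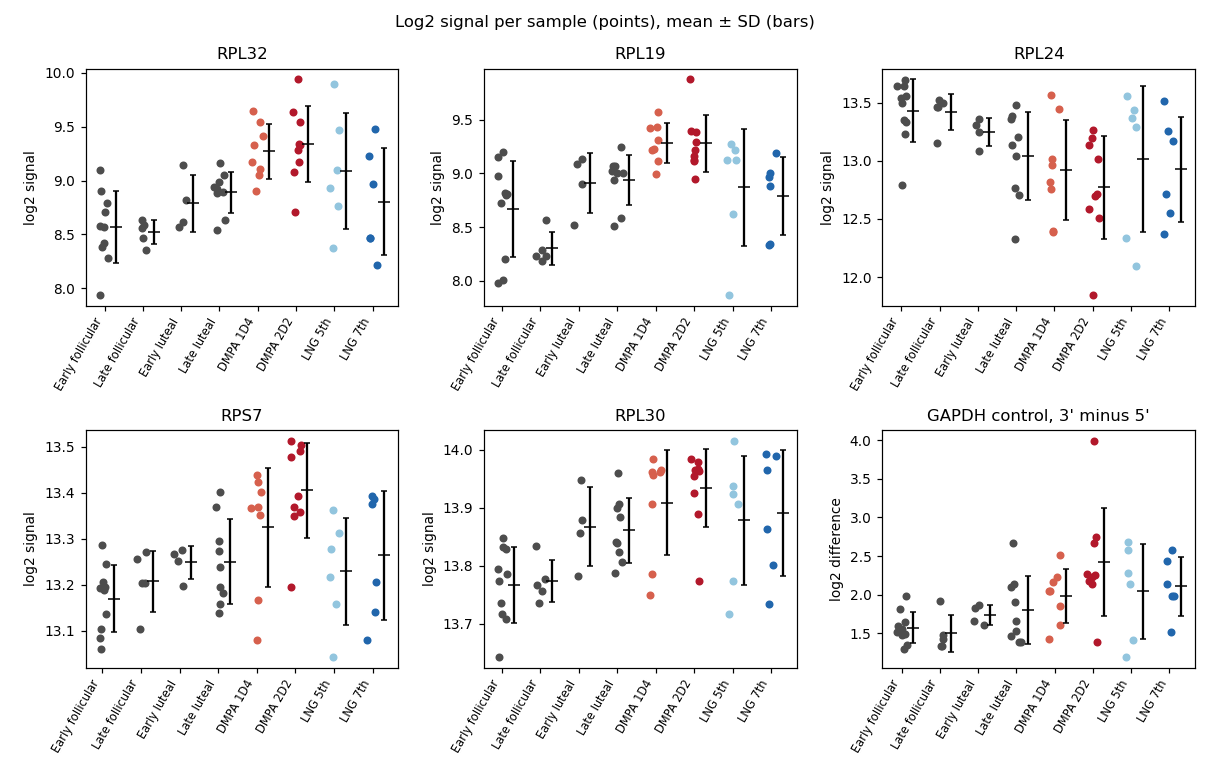
Log2 signal of RPL32, RPL19, RPL24, RPS7 and RPL30 and the GAPDH 3' minus 5' log2 difference in each of the 57 samples, by cycle phase and treated time. Points are samples and bars are mean ± SD. At 2D2, 7 of 9 RPL32 values and 4 of 9 RPL19 values lie above every baseline sample, and the highest GAPDH value, 3.98, is a 2D2 sample.

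Of the 12 small subunit genes that are no paralogs, 4 rose at 2D2 and none fell. RPS10, which lies near the path of the messenger RNA and is tagged with ubiquitin when ribosomes stall, ran from 9.55 to 10.3 (median 10.11) at baseline and from 10.07 to 10.6 (median 10.44) at 2D2. Its samples overlapped the baseline, with 5 of 9 above it, and its change was 0.28 ± 0.09 with an adjusted p of 0.0148. RPS7 ran from 13.06 to 13.4 (median 13.20) at baseline and from 13.19 to 13.51 (median 13.39) at 2D2, a narrow shift with 4 of 9 samples above the baseline range. Its change was 0.17 ± 0.05 with an adjusted p of 0.00728. RPS21 rose by 0.14 ± 0.06 (adjusted p = 0.0496 in limma). RPS26, whose protein lies where the messenger RNA leaves the small subunit, rose by 0.12 ± 0.04 (0.0247). Both were higher in 9 of 9 animals, and the RPS21 call was lost without the filter on dim probe sets (0.0682). RPS6, the substrate of the S6 kinases, had a change of 0.10 ± 0.04 and an adjusted p of 0.0789, and RPS18 one of 0.06 ± 0.04 and 0.258, so neither passed.

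The P stalk recruits elongation factors to the large subunit. RPLP2 rose by 0.13 ± 0.05 (adjusted p = 0.0353) and RPLP1 had the same size of change, 0.13 ± 0.05, without passing (0.0595). Both were higher in 9 of 9 animals. Of the 6 paralogs, RPL7L1 alone was called at 2D2, with 0.22 ± 0.08, an adjusted p of 0.0267 and 8 of 9 animals higher. With the mean of its 4 kept probe sets the change was 0.03 ± 0.04 (adjusted p = 0.549) and the call was lost. Its partner RPL7 had 0.12 ± 0.05 (adjusted p = 0.0629). RPL26L1 had -0.15 ± 0.10 (0.261) beside 0.09 ± 0.04 (0.0823) in its partner RPL26. RPL22L1 had -0.03 ± 0.14 (0.878) beside 0.07 ± 0.08 (0.528) in RPL22. RPL3L, the form of striated muscle, had -0.11 ± 0.08 (0.331), RPL36AL 0.11 ± 0.04 (0.0624) and RPS27L 0.09 ± 0.20 (0.777). The difference between a paralog and its partner was not tested.

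The 2D2 count depended on the animals kept and on whether a control transcript difference was in the model. It was 9 genes without the BB0540 sample at 2D2. With both arms kept and whole animals left out in turn it fell to 5 without BB0540, 6 without BB981, 7 without PHQ1 and 9 without BB0499, BB108 or BB405. The share of all genes called in these fits is not given here, so the shifts may not be particular to the ribosomal protein genes. With the GAPDH difference as a covariate no member was called at 2D2, and none had an unadjusted p under 0.05, while 0% of all genes were called and 1056 had an unadjusted p under 0.05. In that fit RPL32 had 0.19 ± 0.12 and an adjusted p of 0.66, RPL19 had 0.22 ± 0.15 (0.684) and RPL24 had -0.05 ± 0.16 (0.962). With the actin difference as a covariate RPL32 kept an adjusted p of 0.0419 with 0.45 ± 0.13 and was the 1 member called, where 2.22% of all genes rose and 3.2% fell. Beside these genes, 8 of 9 markers of maturing squamous cells fell at 2D2 with a median of -4.45, and 5 of 5 measured markers of dividing cells fell with a median of -1.19. Of 5 measured columnar epithelium markers 4 rose, with a median of 1.12, and their mean per sample ran from 6.95 to 9.31 (median 8.23) at baseline and from 8.50 to 10.16 (median 9.19) at 2D2. The mean of the squamous markers per sample ran from 8.27 to 13.1 (median 12.43) at baseline and from 6.94 to 11.6 (median 7.75) at 2D2. The part of these cell types in the changes of the ribosomal protein genes was not tested, and in bulk tissue fewer cells of a type and less RNA per cell cannot be told apart.

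At 1D4, 5 of the 39 genes rose and 1 fell, where 11.7% of all genes rose and 14.1% fell. RPL19 ran from 8.99 to 9.57 (median 9.27, n = 8), with 4 of 8 samples above the baseline range, and rose by 0.55 ± 0.13 (SE; adjusted p = 0.00672). RPL32 ran from 8.91 to 9.65 (median 9.25), with 5 of 8 above the baseline range, and rose by 0.51 ± 0.13 (0.00654) in 8 of 8 animals. RPS10 rose by 0.28 ± 0.09 (0.0242), RPL7L1 by 0.27 ± 0.08 (0.0173) and RPS26 by 0.12 ± 0.04 (0.0433), each in 7 of 8 animals. With the mean of its probe sets RPL7L1 had 0.08 ± 0.04 (0.184) and was not called.

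RPL3L fell at 1D4. It ran from 5.34 to 6.39 (median 5.89) at baseline and from 5.39 to 5.81 (median 5.51) at 1D4, with no treated sample above the baseline median, and its change was -0.35 ± 0.09 (adjusted p = 0.00784). Its signal is dim on this array. RPL24 had -0.35 ± 0.16 with an adjusted p of 0.105 and RPL4 -0.21 ± 0.09 with 0.084, so neither passed. With the GAPDH difference as a covariate RPL19 (0.43 ± 0.13, adjusted p = 0.0402), RPL32 (0.36 ± 0.10, 0.0362) and RPL3L (-0.30 ± 0.09, 0.0415) were still called, a count of 3, where 2.07% of all genes rose and 4.12% fell. The count was also 3 without animal BB0499 or PHQ1, and 13 without PPi2, with no share of all genes given here for these fits. At this time 7 of 9 markers of maturing squamous cells fell, with a median of -3.56, 5 of 5 of dividing cells fell, with -1.28, and 4 of 5 columnar markers rose, with 0.94. Their part in these changes was not tested.

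The times 1D4 and 2D2 share their baseline samples, so their changes are given side by side only. Compared directly, no member differed between 2D2 and 1D4 in limma, where 0% of all genes were called in either direction. At an unadjusted p under 0.05 there were 2 members and 619 genes in all. These were RPS19, with a difference of 0.52 ± 0.21 (adjusted p = 0.926), and RPL3L, with 0.24 ± 0.10 (0.926). RPL22L1 was next with 0.27 ± 0.16 (0.963). The labelled DMPA dose had no member called at 2D2 either, with 0% of all genes called, and no member but 1183 of all genes had an unadjusted p under 0.05. The smallest p belonged to RPL24, at -0.35 ± 0.18 log2 per unit of labelled dose (adjusted p = 0.55), RPL19, at 0.28 ± 0.15 (0.572), and RPL7L1, at 0.15 ± 0.09 (0.596).

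In the LNG arm no ribosomal protein gene was called at either time. At the 5th time 0 of 39 genes passed in limma and 0% of all genes did in either direction, while 3 members and 2723 of all genes had an unadjusted p under 0.05. At the 7th time the unadjusted numbers were 1 and 2844, again with 0 members and 0% of all genes called. RPL32 at the 5th time ran from 8.37 to 9.90 (median 9.01, n = 6), a wider range than at baseline with 2 samples above it. Its change of 0.52 ± 0.15 (SE, 95% interval 0.23 to 0.82; adjusted p = 0.0588) was close in size to that after DMPA. At the 7th time it was 0.24 ± 0.15 (-0.06 to 0.53; 0.312). RPL4 ran from 8.34 to 9.001 (median 8.48) at the 5th and from 8.29 to 8.97 (median 8.48) at the 7th time. Its changes were -0.34 ± 0.11 (-0.56 to -0.13; 0.0718) and -0.31 ± 0.11 (-0.53 to -0.10; 0.0917), lower in 5 of 6 animals each time. At the 5th time the count was 1 without BB269, and 2 without BB4870 or without the A- arrays. No share of all genes is given here for these fits.

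RPS10 had 0.24 ± 0.11 (adjusted p = 0.18) at the 5th time. RPL9 had 0.10 ± 0.06 (0.254) and RPL3L -0.18 ± 0.10 (0.276) at the 7th. RPL19, called after DMPA, had 0.21 ± 0.16 (95% interval -0.10 to 0.53) and 0.13 ± 0.16 (-0.19 to 0.45), and RPL24 had -0.25 ± 0.19 (-0.63 to 0.14) and -0.33 ± 0.19 (-0.72 to 0.05). These 4 intervals hold 0, and all but that of RPL19 at the 7th time also hold the change seen at 2D2. The median over the 39 genes was 0.02 at the 5th time with 25 values above 0, and 0.05 at the 7th time with 30 above 0. With each array centred on its own median 19 and 20 values lay above 0, so the group had no direction in this arm that held under both scalings. Compared directly, no member differed between the 7th and the 5th time, where 0% of all genes were called, and 0 members and 315 of all genes had an unadjusted p under 0.05. The smallest p belonged to RPS27L, with -0.54 ± 0.28, RPL32, with -0.28 ± 0.17, and RPS3, at the messenger RNA entry, with 0.08 ± 0.05.

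The LNG animals did not move together. At the 5th time 33 of 39 genes lay above the level before treatment in BB967 and in BB173 and 27 in BB537, while 31 were lower in BB269, 30 in BB4800 and 29 in BB4870. At the 7th time 36 were higher in BB967, 35 in BB173 and 32 in BB4800, while 34 were lower in BB537, 33 in BB269 and 30 in BB4870. So 4 of the 6 animals kept their direction and BB537 and BB4800 turned. Over all genes, 46.2% of the fitted changes lay above 0 at the 5th and 44.6% at the 7th time. No share of all genes per animal is given here, so these counts may not be particular to the ribosomal protein genes. The median change per animal ran from -0.12 to 0.18 at the 5th and from -0.12 to 0.25 at the 7th time. At the 7th time the 4 arrays labelled A- had median changes from -0.12 to 0.15 and the 2 others 0.16 and 0.25. At the 7th time the GAPDH difference rose by 0.53 to 0.93 in the 3 animals with a median above 0, and by 0.06, 0.15 and 0.55 in the others. At the 5th time it rose by 0.26 to 0.67 in the 3 animals with a median above 0, and changed by -0.24, 0.04 and, in BB4800, 1.03 in the others. Its part in these medians was not tested.

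After DMPA the animals shared a direction at 2D2 and less so at 1D4. The median change was above 0 in 9 of 9 animals at 2D2, from 0.02 in BB770 to 0.22 in PHQ1, and 22 to 37 of the 39 genes were higher. At 1D4 it was above 0 in 6 of 8 animals, with -0.13 in PPi2, -0.03 in BB770 and a highest value of 0.18 in BB405. Over all genes, 55.6% of the fitted changes lay above 0 at 2D2 and 51.7% at 1D4. No share of all genes per animal is given here, so a shared direction may not be particular to the ribosomal protein genes. PPi2 at 1D4 was the treated sample in which the GAPDH difference fell furthest, by 0.48, and 34 of 39 genes were lower there. This fall rests on the late luteal baseline sample of PPi2, at 2.67. The difference was 1.49 in its early follicular sample and 1.61 at 1D4. No gene was called when the 2D2 change was tested against the LNG 5th change in the same model, with 0% of all genes called, and 0 members and 1032 of all genes with an unadjusted p under 0.05. The smallest p belonged to RPS21, whose change was 0.16 ± 0.09 larger after DMPA (adjusted p = 0.609), RPS26 with 0.12 ± 0.07 (0.628) and RPS7 with 0.12 ± 0.07 (0.657).

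**Figure D3:**
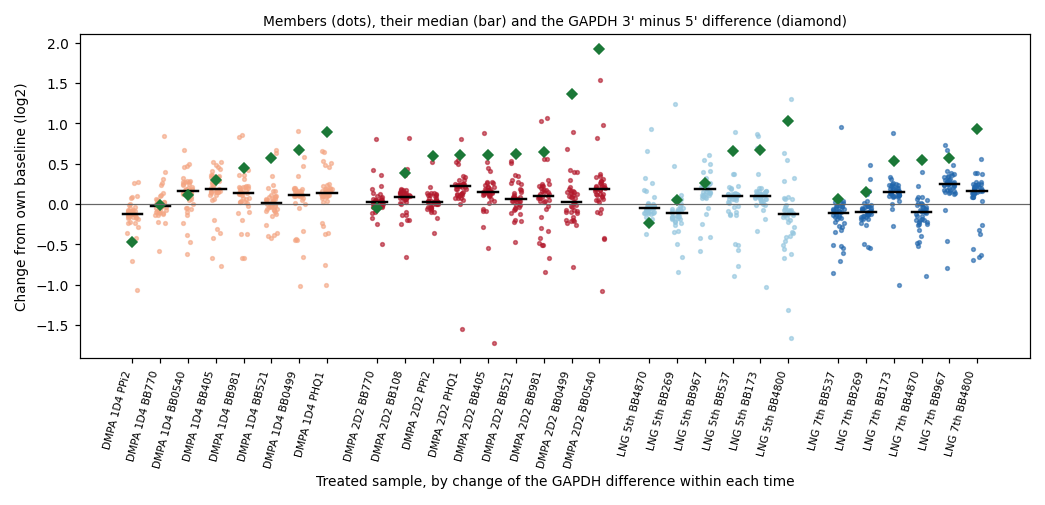
Change of each of the 39 genes from the animal's own mean baseline (dots, log2) in each treated sample, with the median over genes (bar) and the change of the GAPDH 3' minus 5' difference (green diamond). Samples are ordered by the GAPDH change within each time. The bars stay between -0.13 and 0.25, and single genes spread far wider than their median.

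Among untreated animals the cycle phases were compared, since the study sorted its baseline into 4 of them. Between the luteal and the follicular phases, each averaged over its early and late part, RPL19 was the 1 member that rose and none fell, where 1.1% of all genes rose and 0.857% fell. Its signals were 8.67 ± 0.45 (SD, n = 10) in the early follicular, 8.30 ± 0.15 (n = 5) in the late follicular, 8.91 ± 0.28 (n = 4) in the early luteal and 8.94 ± 0.24 (n = 9) in the late luteal phase. In order of these levels, neighbouring phases lay within 1 SD of each other by the wider SD of each pair. The late and early follicular means lay further apart than the late follicular SD. The late follicular range, 8.19 to 8.57, overlapped the 2 luteal ranges only at its top, where the lowest values were 8.52 and 8.51. The luteal minus follicular difference of RPL19 was 0.46 ± 0.10 (SE; adjusted p = 0.0301). The call was lost without the late follicular sample of BB537, BB4800 or PHQ1 and without the early luteal sample of BB173 or BB4800. Without the late follicular sample of BB770, 2 members were called, with no share of all genes given here. The difference of RPL19 lay between 0.42 and 0.49 over these omissions. RPL7L1 had 0.23 ± 0.07 (0.0629) and RPS16 -0.29 ± 0.12 (0.151).

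Late luteal against early follicular, 4 genes rose and 1 fell, where 7.36% of all genes rose and 7.43% fell. RPL32 rose by 0.41 ± 0.13 (SE; adjusted p = 0.0335), RPL19 by 0.39 ± 0.12 (0.0271) and RPL7L1 by 0.23 ± 0.08 (0.0439). RPL10A, chosen for the text after its value was seen, rose by 0.18 ± 0.06 (0.0456). RPL24 fell, by 0.49 ± 0.17 (0.0486), from 12.79 to 13.69 (median 13.52) in the early follicular to 12.33 to 13.48 (median 13.13) in the late luteal phase, ranges that overlap widely. This call was lost in 5 of 9 omissions of 1 late follicular or early luteal sample, with differences from -0.52 to -0.48 over the 9, and in 5 of 10 other settings. With arrays centred on their median 1 member rose and 1 fell, where 5.6% and 9.39% of all genes did. The count was 3 without the late follicular sample of BB537 or the early luteal sample of BB173, with no share of all genes given here. The GAPDH difference was 1.57 ± 0.20 in the early follicular and 1.81 ± 0.44 in the late luteal phase, and with it as a covariate limma called no member, 0.152% of all genes rose and 0.0714% fell. At an unadjusted p under 0.05 that fit had 10 members and 2178 of all genes. These baseline samples also serve as the baseline of the treated comparisons, so a gene named in both is no second observation.

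The GAPDH 3' minus 5' difference was then set beside each gene within animal and stage. The signal of 12 genes rose with it and that of 3 fell, where 19% of all genes rose and 19.5% fell, and with arrays centred the split was 6 and 3, where 16.2% and 20.4% of all genes did. RPL32 had the steepest rise, 0.50 ± 0.10 log2 per log2 unit of the GAPDH difference (SE; adjusted p = 0.000244), followed by RPL19 with 0.41 ± 0.12 (0.00932). RPS10 had 0.22 ± 0.09 (0.0459), RPL7L1 0.21 ± 0.07 (0.0252) and RPS7 0.16 ± 0.04 (0.00337). The falls were those of RPL24, -0.62 ± 0.14 (0.000641), RPL22L1, -0.35 ± 0.14 (0.0484), and RPL26L1, -0.31 ± 0.10 (0.0149). The RPL22L1 call was lost in 11 of 15 fits that left out 1 animal, with slopes from -0.52 to -0.24 over the 15. RPS18 had 0.05 and RPL8 0.00036, close to 0. Against the same GAPDH difference 9 of 9 markers of maturing squamous cells fell, with a median slope of -3.37. Markers of dividing cells fell in 5 of 5, with -1.71, and 1 of 5 columnar markers rose, with a median of 0.60 over the 5. Called rises were 3 of 5 in endothelium (median 0.71), 2 of 4 in smooth muscle (1.75) and 2 of 6 in fibroblasts (1.01). They were 2 of 4 in macrophages and dendritic cells (0.67) and 1 of 4 in B and plasma cells (0.63). Of 2 T cell and 2 squamous basal markers none was called, with medians of 0.41 and -0.16. The part of these cell types in the slopes of the ribosomal protein genes was not tested.

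Leaving out the BB0540 sample at 2D2 gave 18 genes, and leaving out whole animals gave 7 without PPi2 and 9 without BB770. No share of all genes is given here for these omissions. Within the 28 baseline samples alone, which no drug had reached, RPL24 was the 1 member called, with a slope of -0.78 ± 0.12 and an adjusted p of 0.00372, where 6.13% of all genes rose and 7.76% fell. RPL32 had 0.49 ± 0.21 (0.125) and RPL7L1 0.53 ± 0.17 (0.0588) there. This baseline fit held animal but no term for cycle phase. With animal in the fit, only differences within an animal inform these slopes. The widest was that of PPi2, at 2.67 in the late luteal and 1.49 in the early follicular phase. A baseline fit without PPi2 is not given here. The mean GAPDH difference was 1.57 in the early follicular and 1.81 in the late luteal phase, and the part of phase in these slopes was not tested. RPL24 fell with the GAPDH difference at baseline and over all samples. At 2D2 its change came to -0.05 with that difference in the model, a fit in which 0% of all genes were called. The GAPDH difference itself rose by 0.74 at 2D2, and its part in the fall of RPL24 was not tested.

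**Figure D4:**
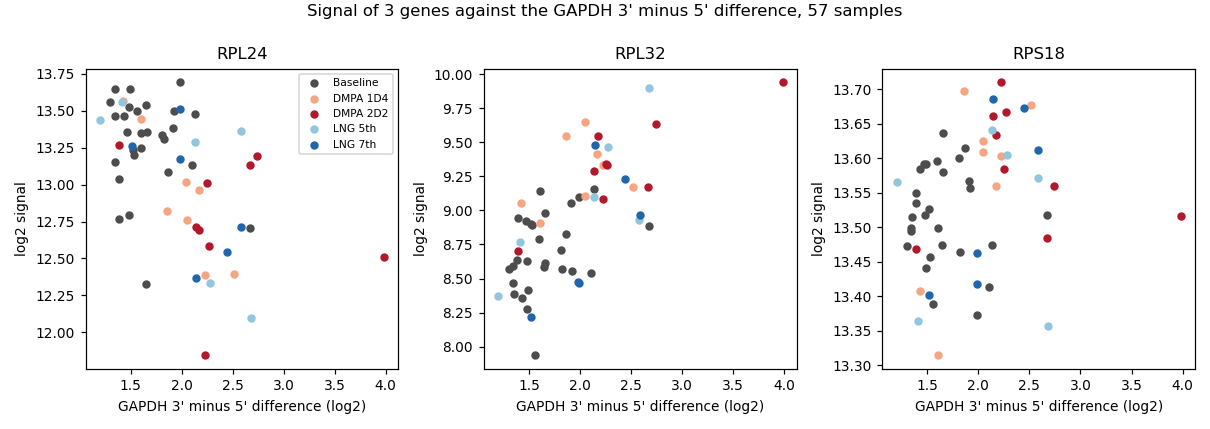
Log2 signal of RPL24, RPL32 and RPS18 against the GAPDH 3' minus 5' log2 difference in the 57 samples, coloured by stage. RPL24 is lower and RPL32 higher where the difference is large, while RPS18 shows little slope, and the sample at 3.98 is that of BB0540 at 2D2.

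With animal means taken out, the bright genes followed each other over the 57 samples. The correlation of a bright gene with the mean of the other bright genes had a median of 0.85 and a highest value of 0.94, given as a description of values that share arrays and scaling. It was over 0.5 for 24 of the 25. The exception was RPL24 with -0.67. Among the 14 other genes 2, RPL22 (0.75) and RPS10 (0.52), were over 0.5 with the bright mean, and 5 members in all were negative. The mean of all 39 had a correlation of 0.47 with the GAPDH difference and -0.16 with the array median. The 5 genes outside the group most like its mean were LOC709769, LOC693947, LOC693472, LOC719947 and LOC705310, with correlations from 0.85 to 0.91 over the 57 samples.

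Probe sets of the same gene did not always move alike. Of the 39 genes, 13 have several kept probe sets, and at 2D2 the signs differed within 3 of them and 5 had some but not all called. In 9 of the 13 a dimmer probe set moved further than the brightest. RPL15 had 0.08 ± 0.06 (SE) on its brightest probe set, with a mean signal of 12.9, and 0.47 ± 0.14 (adjusted p = 0.0111) on the other, with a mean of 10.3. RPL26 had 0.09 ± 0.04 and 0.34 ± 0.12 (0.0328) on probe sets with means of 13.6 and 7.79.

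RPL32 rose on both of its probe sets, by 0.57 and by 0.30 ± 0.11 (adjusted p = 0.0331). Their mean signals were 8.93 and 6.85, so its rise was not read on a probe set with a mean over 12. RPL35A rose on both of its kept probe sets, by 0.10 and 0.22 ± 0.05 (0.00317), and RPS6 rose on its second probe set, by 0.14 ± 0.05 (0.0193). RPL7L1 was the 1 gene with called slopes of opposite sign on the GAPDH difference. Its brightest probe set had 0.21 ± 0.07 and another, with a mean of 7.94, had -0.32 (0.004), so its direction is uncertain. RPL24 and RPL19 each rest on a single kept probe set, with means of 13.08 and 8.91.

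**Figure D5:**
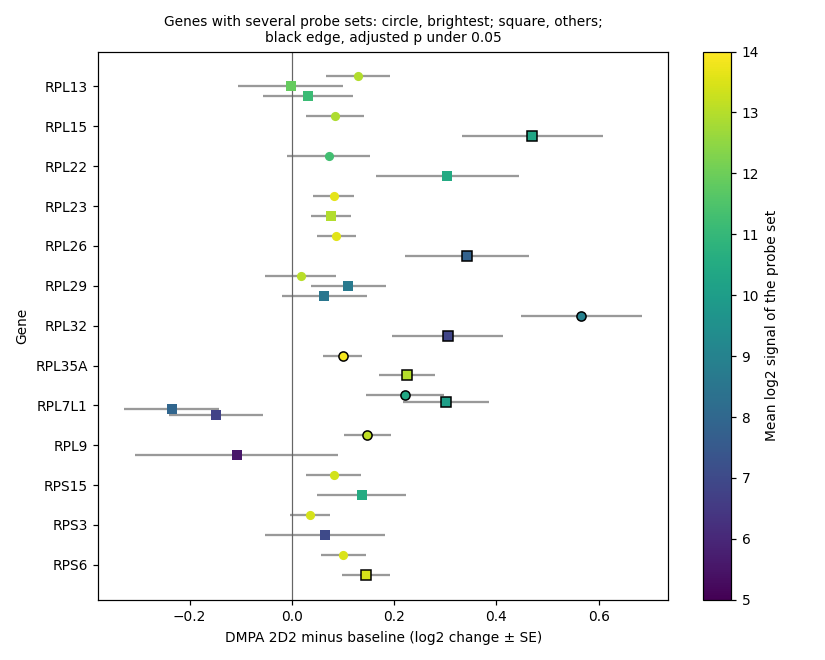
Log2 change ± SE at DMPA 2D2 for every kept probe set of the 13 genes with several, with the brightest as a circle and the others as squares, coloured by mean log2 signal and edged in black where the adjusted p is under 0.05. In RPL15 and RPL26 the dimmer probe set moved by 0.47 and 0.34 where the brightest moved by under 0.1.

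Other genes of protein synthesis were read from lists of known genes. Of 7 ribosome-associated and ubiquitin-fusion genes 4 were measured, and FAU, which encodes a small subunit protein fused to a ubiquitin-like one, was the 1 that rose at 2D2, by 0.20 ± 0.06 (SE; adjusted p = 0.0137). Of 39 translation factors 26 were measured, and 6 rose and 5 fell, with a median of -0.03, where 17.2% of all genes rose and 14.1% fell. The rises included EEF2, the translocation factor, with 0.59 ± 0.20 (0.0275), and EIF4A2, a helicase, with 0.27 ± 0.07 (0.00719). The falls included EIF6, which keeps free large subunits from joining, with -0.53 ± 0.12 (0.00158), and EIF5A with -0.43 ± 0.14 (0.0178). Subunits of the initiation factor EIF3 went both ways, with EIF3F at 0.24 ± 0.08 (0.0199) and EIF3J at -0.45 ± 0.10 (0.00162).

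Of 39 ribosome assembly genes 35 were measured, 7 rose and 2 fell, with a median of -0.01. The rising share was near the 17.2% of all genes and the falling share under their 14.1%. RRN3, a transcription factor of RNA polymerase I, rose by 0.54 ± 0.15 (adjusted p = 0.00717), and the nucleolar genes FBL, NPM1 and NCL rose by 0.22 ± 0.08, 0.16 ± 0.05 and 0.15 ± 0.06. SBDS, which helps to release EIF6 from the large subunit, fell by 0.44 ± 0.10 (0.00196). Of 61 mitochondrial ribosomal protein genes 4 rose and 1 fell, with a median of -0.02, both shares under the 17.2% and 14.1% of all genes. The rises included MRPS26 with 0.40 ± 0.10 (0.00269), and the fall was that of MRPL42, -0.38 ± 0.11 (0.0116). At 2D2 the median change was thus 0.10 over the cytosolic and -0.02 over the mitochondrial ribosomal protein genes, a difference that was not tested.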

How the data were processed

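The authors deposited 1 column of log2 signal per array, and these values were used unchanged. Per the submitters' processing notes, affy and Partek were used. Background correction and normalization are not given in the sources used here. A second array of 1 biopsy, marked as a duplicate, was averaged with the first, so that 57 samples remained. Of 52865 probe sets, 158 controls and then those under the 40th percentile of mean signal (5.53) were removed, leaving 31624. Of all probe sets, 24969 carry 1 symbol, 361 several and 27535 none. A further 30 probe sets that name a ribosomal protein gene among several symbols were not used.

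Models were fitted with limma 3.58.1 in R 4.3.3 (statmod 1.5.0 for the random block), with animal as a fixed block and stage or phase as groups. Each animal's own baseline pairs the samples through the animal label, not through replicate numbers. P-values were adjusted by Benjamini-Hochberg over all kept probe sets, and a gene was called under 0.05. The script was tested on simulated data. The GAPDH, actin and EEF1A1 differences are 3' minus 5' control probe sets. Treated replicates are separate animals, while the 28 baseline samples come from 15 animals, 13 of which gave 2, so a baseline SD mixes spread between and within animals.

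Members and lists were chosen with earlier results of these data known. Named were the 5 largest called rises and falls (3 in secondary comparisons), or the 3 smallest p where under 3 were called, with the P stalk genes, RPL32, RPS18, RPS6 and the paralogs with partners. Other probe sets, list genes and RPL8, RPL9, RPL17, RPL30, RPL35A, RPS21 and RPL10A were named after their values were seen. Alternatives covered the filter, scaling, probe set, block, array weights, duplicate, GAPDH and actin covariates, baseline phases, the A- arrays and single animals or samples left out.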

Additional observations from a re-analysis of the deposited data

Results flagged for a closer look

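Of 104 groups of samples examined, 13 measures in 8 groups each, 12 held a sample far from the others, where chance would flag about 1 in 20 groups. RPL19 was high in the late follicular sample of PHQ1, at 8.57 where the other 4 lay between 8.19 and 8.28, and high at 2D2 in BB0540, at 9.88 where the other 8 lay between 8.95 and 9.40. RPL24 was low in an early follicular sample of BB4870, at 12.8 against 13.2 to 13.7, and in the late follicular sample of BB269, at 13.2 against 13.46 to 13.52. RPL22L1 was high in the early follicular sample of BB405, at 12.4 against 11.6 to 11.9, and low at LNG 5th in BB4800, at 9.75 against 11.5 to 11.8.

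RPL3L was low in the late follicular sample of PHQ1, at 5.72 against 6.08 to 6.09. RPL4 was high at 2D2 in PHQ1, at 9.12 against 8.23 to 8.59, and high at LNG 5th in BB4870, an array labelled A-, at 9.001 against 8.34 to 8.55. RPL7L1 was low at 1D4 in BB770, at 10.2 against 10.5 to 10.7, and RPS10 was low in an early follicular sample of BB981, at 9.55 against 9.96 to 10.2. The GAPDH 3' minus 5' difference was high in the late follicular sample of BB537, the mean of a duplicate pair of arrays, at 1.92 against 1.34 to 1.48. All values are log2 signals, or a log2 difference for GAPDH.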

How the results depend on the processing

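Counts of called ribosomal protein genes moved with several settings. Where no count over all genes stands beside them, a shift may not be particular to the group. With the GAPDH difference in the model the counts were 0 at 2D2 (0 over all genes) and 3 at 1D4 (693). They were 0 between luteal and follicular (2 over all genes) and 0 between late luteal and early follicular (25). With the actin difference they were 1 at 2D2 (607) and 2 for late luteal against early follicular (1397). With arrays centred they were 9 at 2D2 (3259), 9 for the GAPDH slope (4099) and 2 for late luteal against early follicular (1679). The latter count, 5 in the report, was also 2 without a filter, 8 with a stricter filter (60th percentile), 9 with the mean of a gene's probe sets, 9 with array weights, 1 with animal as a random block and 8 over every kept probe set. Array weights gave 16 at 1D4, 1 at LNG 5th, 2 between luteal and follicular and 23 for the GAPDH slope. LNG 5th had 1 with the stricter filter, the probe set mean or 4 separate baseline phases, and 2 without the A- arrays. The luteal count was 2 with the random block and 2 over every kept probe set, where 1D4 had 10.

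Added after seeing the data were the omission of the 2D2 sample of BB0540 (9 at 2D2), the slope within baseline samples (1) and the count over every kept probe set. With no replicate block, so without the pairing by animal, counts were 15 at 2D2, 5 at 1D4, 0 between luteal and follicular, 0 between late luteal and early follicular and 15 for the GAPDH slope. Leaving out each animal in turn, or each late follicular or early luteal sample, gave 5 to 15 at 2D2, 3 to 13 at 1D4, 0 to 2 at LNG 5th, 0 to 2 between luteal and follicular, 3 to 7 between late luteal and early follicular and 7 to 19 for the GAPDH slope. No count over all genes is given here for the unblocked fit or these omissions. Their shifts may not be particular to the ribosomal protein genes. LNG 7th, both time differences, the arm difference and the dose slope stayed at 0 in all these settings. Of 575 recomputed values of 26 named results, 458 kept direction and call, 116 lost the call and 1 reversed, the GAPDH slope of RPL7L1, at -0.0091 with the mean of its probe sets. The cause was not tested, beyond its probe sets differing in sign. The deposited values give no background signal.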

Other observations

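Ribosomal RNA control probe sets had a mean log2 signal of 13.82 ± 0.06 (SD, n = 28) at baseline, 13.91 ± 0.04 (n = 8) at 1D4 and 13.91 ± 0.06 (n = 9) at 2D2, with overlapping ranges. The duplicate array had a GAPDH difference of 2.14 and its partner 1.71. Over the 39 ribosomal protein genes the values of the duplicate minus its partner had an SD of 0.24, against a median SD of 0.26 for the 13 pairs of baseline samples from 1 animal.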
